A study of Mus musculus with 4 samples.

Results

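The stromal matrix and contractile genes are 37 genes of smooth muscle-type contractile proteins, collagens, collagen-modifying enzymes, proteoglycans, matrix glycoproteins and surface or caveolar proteins. They were matched by symbol, and all 37 were found among the 23284 genes of the tables. The genes were chosen from measured values of these libraries: low ratios of stromal genes in knockout against control cells without LPS were known when the list was made, so that comparison is a description with no test. The values come from mouse bone marrow-derived macrophages, cultured macrophages grown from marrow progenitors. Control cells are labelled Spic+/+ and knockout cells Spic-/-, for the gene of the heme-induced Ets factor Spi-C. The titles call the latter cKO, and the labels name no allele, deleted part or Cre driver. All 4 cultures, controls included, had 18 h of hemin, the oxidised form of heme, at 40 µM by the protocol text, where the samples' own descriptions have mM as the unit. They were then left without LPS or given 100 ng/ml LPS, the Toll-like receptor 4 ligand of bacteria, for 4 h. Each combination was 1 library. Differences between libraries therefore lack any check against the spread of cultures, and no p-value is given. Where values come in pairs, the one without LPS is first.

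Extracellular matrix is made mainly by mesenchymal cells such as fibroblasts, marrow stromal cells and pericytes. Collagen chains are folded with the help of chaperones, secreted, trimmed and then cross-linked by lysyl oxidases, while proteoglycans and glycoproteins set the spacing of the fibres. Activated fibroblasts and smooth muscle cells also hold contractile filaments of smooth muscle actin, tropomyosin and myosin. Macrophages break down and take up matrix, and they themselves produce some of its glycoproteins, fibronectin and TGF-beta-induced protein among them.

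Levels are given in FPKM, which is per transcript length, so levels of different genes can be set side by side. By the steps between low values, a level of 1 FPKM matched an estimated 15.7 and 10.6 fragments per kilobase in control and 12.98 and 8.09 in knockout, so the knockout library with LPS was the shallowest. Counting intervals are exact 95% intervals (Clopper-Pearson) from these estimated fragments, and they cover counting error only, not the variation between cultures. Spic stood at 53.1 and 406 FPKM in control and 14.98 and 80.8 FPKM in knockout, so the libraries labelled Spic-/- held 28.2% and 19.9% of the control level. With LPS their Spic level was above that of control without LPS. The values are per gene, so whether these fragments come from outside a deleted part was not examined, and knockout stands for that label throughout. Of the 10 macrophage markers, all were above 5 FPKM in every library and their summed level was 7567 to 10201 FPKM. In knockout against control, 8 of these 10 had log2 ratios above 0 in each LPS state, and Lyz2, the lysozyme gene (−0.66 and −0.72), was the only 1 at least 1.5-fold lower.

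Cells other than macrophages were looked for with marker lists that hold no member. Of 13 further markers of fibroblasts and marrow stroma, 6 reached 1 FPKM, led by S100a4, which macrophages express as well, and by the stromal chemokine gene Cxcl12. Cxcl12 stood at 91.6 and 101 FPKM in control and 49.5 and 56.3 FPKM in knockout, with log2 ratios of knockout to control of −0.87 and −0.83. S100a4 stood at 493 and 386 FPKM in control and 538 and 341 FPKM in knockout. The summed level of the 13, most of which was S100a4, was 607 and 522 FPKM in control and 604 and 421 FPKM in knockout. Of the 4 at 5 FPKM or more, 3 had log2 ratios below 0 without LPS and 4 with LPS (medians −0.49 and −0.60). At least 1.5-fold lower in knockout were 1 of these 4 without LPS and 2 with LPS. Tcf21 and Meox1 were listed at 0 in all libraries. The 6 further smooth muscle and pericyte markers summed to 3.61 and 1.98 FPKM in control and 1.82 and 0.811 FPKM in knockout. The highest were Lmod1, at 2.18 and 0.758 FPKM in control and 1.06 and 0.332 FPKM in knockout, and Mcam. Mcam stood at 1.05 and 0.878 FPKM in control and 0.461 and 0.416 FPKM in knockout. The other 4 of 6 were under 1 FPKM in every library, among them the smooth muscle myosin gene Myh11 and the desmin gene Des. Of 11 endothelial markers 10 were under 1 FPKM in every library (sums of 1.71 to 2.23 FPKM), and Cldn5 and Robo4 were listed at 0. Each list for mast, erythroid, T and NK, B, fat, bone and cartilage cells and for neutrophils summed to at most 8.20 FPKM in any library. In bulk RNA, fewer cells of a type and less RNA per cell cannot be told apart, for every genotype difference given here. What part these markers have in the members' values was not tested.

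Most members were lower in knockout than in control cells, in each LPS state. The summed level of the 37 genes was 1606 and 1836 FPKM in control and 1016 and 1208 FPKM in knockout. The knockout sum was 63.2% of control without LPS and 65.8% with LPS. Ratios are on the log2 scale after adding 1 FPKM to each level, so that a low gene's difference appears smaller than it is. They were below 0 for 32 of 37 members without LPS and for 32 of 37 with LPS, and the counting interval of the plain FPKM ratio lay wholly below 1 for 30 and 31 members. No share over all genes is given for these counts, so nothing is read from them. Among members with at least 5 FPKM in 1 library of the pair, 6 of 31 were at least 2-fold lower without LPS, against 0.412% of all 7762 genes. With LPS 3 of 34 were, against 0.4% of 7509 genes. At 1.5-fold, 23 of 31 (against 1.37% of genes) and 23 of 34 (1.69%) were lower. At least 1.5-fold higher were 2 of 31 without LPS (1.75% of genes) and 0 of 34 with LPS (2.86%). The medians of the members were −0.72 and −0.66, where all genes had 0.07 and 0.09. The minimum of 5 FPKM was met through the control library alone by Cnn1, Col12a1 and Fbn1 without LPS, and by these, Col8a1 and Pdgfra with LPS. Cav1, 1 of the 2 members counted higher without LPS, met it there through the knockout library alone. Each of these genes thus passed through the library in which it was higher. Because the list was made from the pair without LPS, its share there is fixed in part by the choice, and nothing is read from it.

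**Figure D1:**
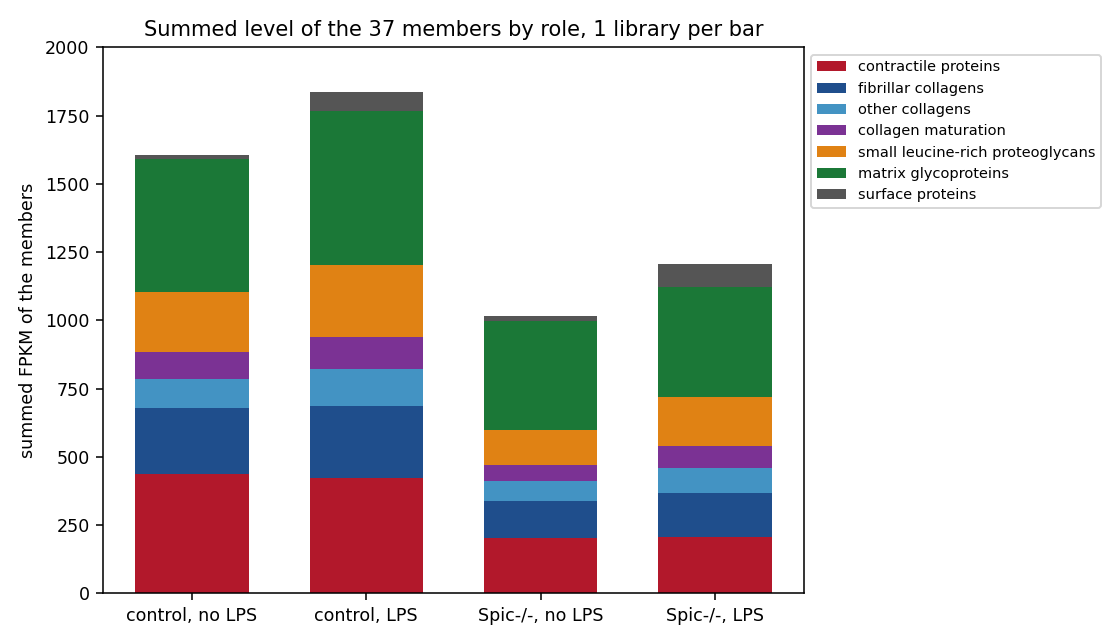
Summed FPKM of the 37 members by role (stacked colours), with 1 bar for each library and the vertical axis from 0. The control bars reach 1606 and 1836 FPKM and the knockout bars 1016 and 1208 FPKM; matrix glycoproteins and contractile proteins are the tallest segments in control.

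The contractile genes had the lowest median ratios of any role. Acta2, which encodes smooth muscle actin and had the highest mean level of all members, stood at 237 and 243 FPKM in control and 109 and 118 FPKM in knockout. Both control libraries were thus above both knockout libraries, and the knockout level was 45.97% of control without LPS (counting interval 43.9 to 48.1%) and 48.6% with LPS (45.95 to 51.3%). Tagln, the gene of the actin-binding protein transgelin, stood at 110.2 and 111 FPKM in control and 54.6 and 53.5 FPKM in knockout. Its knockout level was 49.5% and 48.1% of control. Myl9, a regulatory myosin light chain gene, stood at 64.1 and 46.99 FPKM in control and 25.96 and 25.4 FPKM in knockout. It had the lowest ratio of all members without LPS on the scale with 1 FPKM added (−1.27), and with LPS the control level was lower and the ratio was −0.86. Tpm2, a tropomyosin gene, stood at 21.4 and 17.3 FPKM in control and 10.01 and 8.66 FPKM in knockout. Cnn1, which encodes calponin, was the least abundant of the 5, at 5.64 and 5.30 FPKM in control and 1.998 and 2.30 FPKM in knockout. The estimated fragments behind Cnn1 were 192, 122, 56 and 40 in the same order, so the intervals of its knockout level were wide, at 25.7 to 47.6% of control without LPS and 29.4 to 62.04% with LPS. All 5 were at least 2-fold lower without LPS (median −1.11), and with LPS 2 of 5 were, Acta2 (−1.04) and Tagln (−1.04), beside −0.93 for Cnn1 and −0.92 for Tpm2. With 5 FPKM added in place of 1, Tagln (−0.95 and −0.99) was under 2-fold in each LPS state, and Tpm2 (−0.81) and Cnn1 (−0.61) were without LPS. Coding sequences of actins and of myosin light chains are very alike between genes, so the values of Acta2 and Myl9 are uncertain in so far as fragments were shared between copies.

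Start sites of 25 members had windows in RefSeq's promoter table (GRCm38.p6, from 250 bases before to 50 after the start). Windows of the members with the highest level (Acta2) and with the lowest ratio (Myl9) are printed 5′ to 3′ on the gene's strand, with motifs in capitals. The Acta2 window is at chr19:34255324-34255623, minus strand, and the Myl9 window at chr2:156775214-156775513, plus strand. Capitals mark a GGAATG, the motif of TEAD factors, in Acta2 and a CArG box, the motif of serum response factor, in Myl9.
Acta2: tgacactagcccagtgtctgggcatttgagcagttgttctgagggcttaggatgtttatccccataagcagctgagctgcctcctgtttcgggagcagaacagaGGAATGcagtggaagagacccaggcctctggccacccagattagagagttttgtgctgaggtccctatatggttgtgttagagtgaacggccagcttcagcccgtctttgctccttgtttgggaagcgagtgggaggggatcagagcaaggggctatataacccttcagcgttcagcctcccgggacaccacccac
Myl9: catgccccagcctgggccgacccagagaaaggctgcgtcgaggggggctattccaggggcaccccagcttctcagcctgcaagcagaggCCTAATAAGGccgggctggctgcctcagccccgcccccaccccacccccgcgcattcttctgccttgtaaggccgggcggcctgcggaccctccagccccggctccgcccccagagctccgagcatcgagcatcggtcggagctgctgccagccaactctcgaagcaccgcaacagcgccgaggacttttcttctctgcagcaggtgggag
The CArG box was searched in its strict form (CC, then 6 letters that are each A or T, then GG), which reads alike on both strands, with no mismatch allowed. Of the 25 members Myl9 alone held this strict form, 161 bases before the start. Acta2 is known for CArG elements that depart from it, and such elements were not searched. Of all 32851 windows 1.63% held one. GGAATG was searched on both strands and was in windows of Acta2, Col3a1, Col6a2 and Ogn, 4 of 25 members, against 14.7% of all windows. A match is a description of these letters, and no binding was measured, and a window without one says only that these letters are not in it.

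**Figure D2:**
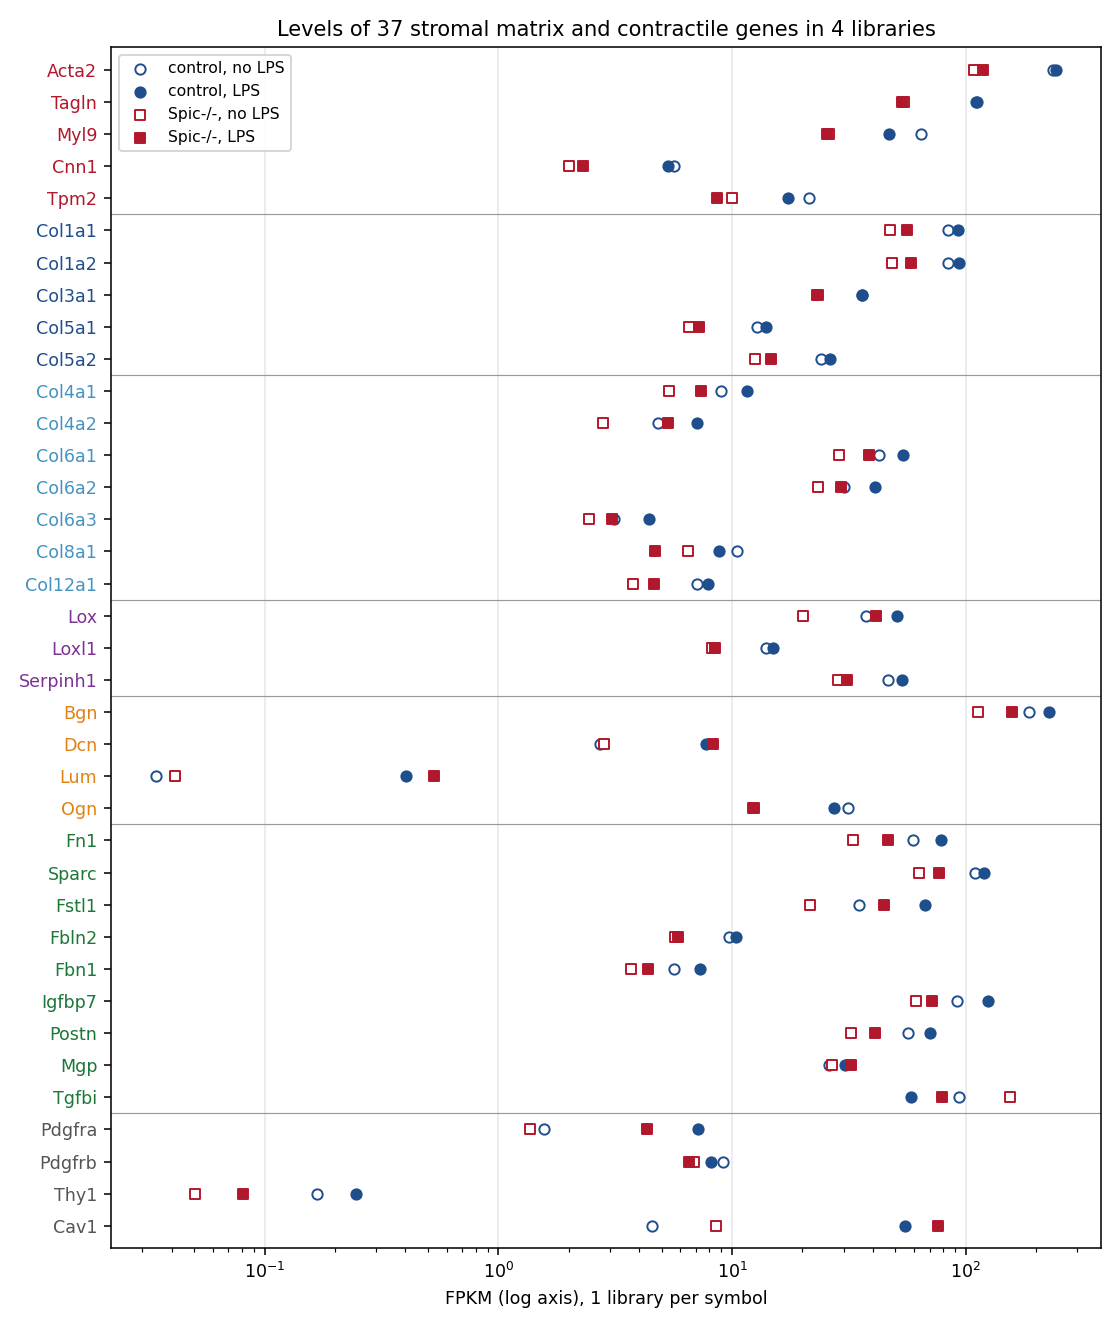
FPKM of each member (rows, coloured and ruled off by role) on a log axis, 1 symbol for each library: circles for control, squares for knockout, filled with LPS. Within each LPS state the square lies left of the circle in most rows, with Acta2 at 237 and 243 FPKM in control and 109 and 118 in knockout. Exceptions are Dcn, Lum, Mgp, Tgfbi and Cav1.

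The fibrillar collagens were lower in knockout to a smaller degree. Col1a1 and Col1a2 encode both chains of type I collagen. Col1a1 stood at 84.04 and 92.6 FPKM in control and 47.3 and 56.2 FPKM in knockout, and Col1a2 at 83.9 and 93.6 FPKM in control and 48.3 and 58.1 FPKM in knockout. These genes lie on different chromosomes (11 and 6), and the quotient of their levels was 1.002 and 0.989 in control and 0.980 and 0.967 in knockout. Their knockout levels were 56.3% and 57.6% of control without LPS and 60.7% and 62.1% with LPS. Col3a1, the gene of type III collagen, stood at 35.9 and 35.9 FPKM in control and 22.99 and 23.2 FPKM in knockout. It was the least shifted of the 5, with knockout levels of 64.1% and 64.7% of control. Type V collagen nucleates type I fibrils: its genes Col5a1 and Col5a2 had ratios of −0.86 and −0.89 without LPS and −0.86 and −0.79 with LPS. Col5a1 stood at 12.7 and 13.9 FPKM in control and 6.57 and 7.23 FPKM in knockout, and Col5a2 at 24.1 and 26.1 FPKM in control and 12.6 and 14.6 FPKM in knockout. All 5 were at least 1.5-fold lower in each LPS state and none was 2-fold lower (medians −0.82 and −0.71).

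Col3a1 and Col5a2 are neighbours on chromosome 1, 24.6 kb apart (45311538 to 45349706 and 45374321 to 45503282, GRCm38, GENCODE vM21). The window of Col3a1, printed as that of a collagen gene with both other motifs, is at chr1:45311288-45311587, plus strand, with capitals at a match of the TEAD motif on the other strand and at TATAAA, the letters of a TATA box.
Col3a1: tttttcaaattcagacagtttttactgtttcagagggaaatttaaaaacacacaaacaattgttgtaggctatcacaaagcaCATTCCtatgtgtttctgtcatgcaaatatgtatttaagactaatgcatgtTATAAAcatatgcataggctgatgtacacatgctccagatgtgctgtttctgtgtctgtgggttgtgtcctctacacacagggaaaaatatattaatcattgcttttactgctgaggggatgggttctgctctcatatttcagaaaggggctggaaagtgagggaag
TATAAA was searched on both strands and was in windows of Col3a1, Ogn, Postn and Cav1, 4 of 25 members, against 13.6% of all windows. Only the Postn match lay near the usual distance from a start, with its first base 26 bases before it; in Col3a1 it was 117 bases before.

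Among the other collagens, type VI chains differed less between genotypes than the fibrillar ones. Col6a1 stood at 42.4 and 53.6 FPKM in control and 28.6 and 38.6 FPKM in knockout, Col6a2 at 30.01 and 40.7 FPKM in control and 23.4 and 29.3 FPKM in knockout and Col6a3 at 3.14 and 4.42 FPKM in control and 2.43 and 3.07 FPKM in knockout. Type VI collagen forms beaded microfilaments next to cells, and the knockout levels of its genes were 67.3%, 77.9% and 77.4% of control without LPS and 72.1%, 72.02% and 69.3% with LPS. Col6a3 stayed under 5 FPKM in every library. Col4a1 and Col4a2 encode basement membrane collagen and are transcribed away from each other on chromosome 8, where their annotated spans share 22 bases. Col4a1 stood at 8.97 and 11.6 FPKM in control and 5.39 and 7.33 FPKM in knockout, and Col4a2 at 4.81 and 7.07 FPKM in control and 2.80 and 5.32 FPKM in knockout. Col4a2 in knockout with LPS (5.32 FPKM) was above Col4a2 in control without LPS (4.81 FPKM). The quotient of Col4a1 to Col4a2 was 1.86 and 1.64 in control and 1.93 and 1.38 in knockout, lowest in the knockout library with LPS. Col8a1, a short-chain network collagen gene, stood at 10.5 and 8.75 FPKM in control and 6.48 and 4.68 FPKM in knockout. Col12a1, whose product binds along type I fibrils, stood at 7.10 and 7.87 FPKM in control and 3.77 and 4.65 FPKM in knockout. In knockout, Col8a1 had ratios of −0.62 and −0.78, and Col12a1 −0.76 and −0.65.

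All 3 genes of collagen maturation were lower in knockout, and Lox was less so with LPS than without. Lox, the lysyl oxidase gene that starts cross-linking, stood at 37.5 and 50.5 FPKM in control and 20.1 and 41.2 FPKM in knockout. The knockout library with LPS was above the control library without LPS, and the knockout level was 53.6% of control without LPS (counting interval 50.1 to 57.5%) and 81.5% with LPS (76.3 to 86.9%). Loxl1, the lysyl oxidase-like gene linked to elastic fibres, stood at 13.96 and 14.97 FPKM in control and 8.19 and 8.43 FPKM in knockout. Serpinh1, the collagen chaperone gene, stood at 46.3 and 53.3 FPKM in control and 28.3 and 30.9 FPKM in knockout. Loxl1 had knockout levels of 58.7% and 56.3% of control, and Serpinh1 61.1% and 57.99%, with both control libraries above both knockout libraries for each.

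The small leucine-rich proteoglycans, which bind collagen and growth factors, split. Ogn, the osteoglycin gene, stood at 31.3 and 27.2 FPKM in control and 12.5 and 12.3 FPKM in knockout, and its ratios of −1.26 and −1.09 were among the lowest of all members. With 5 FPKM added the second was −0.90, under 2-fold. Bgn, the biglycan gene and the second most abundant member, stood at 186 and 227 FPKM in control and 113 and 157 FPKM in knockout, with knockout levels of 60.7% and 69.5% of control. Dcn, the decorin gene, did not share the low knockout values: it stood at 2.71 and 7.70 FPKM in control and 2.82 and 8.28 FPKM in knockout, and the intervals of its knockout level, 71.8 to 151% and 82.2 to 141% of control, held 100%. Lum, the lumican gene next to Dcn on chromosome 10, 47.0 kb away, stood at 0.0343 and 0.404 FPKM in control and 0.0414 and 0.531 FPKM in knockout, which is about 1, 10, 1 and 10 fragments in the same order. At this depth no genotype difference of Lum was detectable. The Ogn window, printed as that of the proteoglycan with the lowest ratio, is at chr13:49607765-49608064, plus strand, and its capitals mark TATAAA on both strands, overlapping, and GGAATG.
Ogn: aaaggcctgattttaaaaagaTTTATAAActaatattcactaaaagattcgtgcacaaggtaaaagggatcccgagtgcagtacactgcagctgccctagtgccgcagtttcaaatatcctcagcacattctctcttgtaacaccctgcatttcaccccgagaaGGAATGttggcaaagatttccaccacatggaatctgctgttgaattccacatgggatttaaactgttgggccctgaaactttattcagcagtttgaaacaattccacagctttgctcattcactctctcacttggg
The overlapping TATAAA matches began 229 and 227 bases before the start and the GGAATG 86 bases before it.

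Of the 9 matrix glycoproteins, 7 were lower in knockout in each LPS state and 2 were not. Fn1, the fibronectin gene, which macrophages express as well, stood at 59.7 and 78.2 FPKM in control and 32.8 and 46.3 FPKM in knockout. Its knockout level was 54.9% of control without LPS and 59.1% with LPS, close to those of Postn (57.3% and 57.98%). Postn, the periostin gene, stood at 56.4 and 70.5 FPKM in control and 32.3 and 40.9 FPKM in knockout, and Sparc, the gene of a collagen-binding calcium protein, at 109.9 and 119 FPKM in control and 62.96 and 76.5 FPKM in knockout. Igfbp7 stood at 91.7 and 124 FPKM in control and 61.3 and 71.7 FPKM in knockout. It encodes an insulin-like growth factor binding protein and had ratios of −0.57 without LPS and −0.78 with LPS. Fstl1, a follistatin-like gene, stood at 35.1 and 66.7 FPKM in control and 21.6 and 44.5 FPKM in knockout. Knockout with LPS was above control without LPS for Fstl1, while within each LPS state the knockout level was 61.5% and 66.8% of control. The fibulin gene Fbln2 had ratios of −0.68 and −0.73, at 9.74 and 10.4 FPKM in control and 5.68 and 5.85 FPKM in knockout. The fibrillin gene Fbn1 had −0.50 and −0.62, at 5.65 and 7.30 FPKM in control and 3.69 and 4.39 FPKM in knockout.

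Tgfbi and Mgp did not follow. Tgfbi, which encodes a TGF-beta-induced adhesion protein, was higher in knockout, at 93.5 and 58.03 FPKM in control and 155 and 78.7 FPKM in knockout. Its knockout level was 166% of control without LPS (counting interval 159 to 173%) and 136% with LPS (126 to 146%). Mgp, the gene of an inhibitor of calcification, stood at 26.02 and 30.4 FPKM in control and 26.9 and 32.3 FPKM in knockout, and the intervals of its knockout level (81.95 to 130% and 80.9 to 137% of control) held 100%. Its transcript is short, and its values rested on 166, 132, 142 and 106 fragments.

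Of the surface and caveolar proteins, only Cav1 had ratios above 0 in each LPS state. Those of Pdgfrb, Pdgfra and Thy1 were below 0 in each. Cav1, the gene of the caveolar coat protein caveolin 1, was higher in knockout, at 4.54 and 54.8 FPKM in control and 8.49 and 76.3 FPKM in knockout, or 187% of control without LPS (155 to 228%) and 139% with LPS (129.6 to 149.6%). Pdgfrb and Pdgfra encode both receptors for platelet-derived growth factors, which mark mesenchymal cells. Pdgfrb stood at 9.12 and 8.12 FPKM in control and 6.87 and 6.53 FPKM in knockout, and Pdgfra at 1.57 and 7.16 FPKM in control and 1.36 and 4.34 FPKM in knockout. The Pdgfra knockout level was 86.95% of control without LPS, where the interval (67.7 to 111%) held 100%, and 60.6% with LPS (51.5 to 70.8%). Thy1, a surface glycoprotein of many fibroblasts, was near the limit of detection, at 0.168 and 0.247 FPKM in control and 0.0506 and 0.0812 FPKM in knockout, or about 4, 4, 1 and 1 fragments in the same order, so no genotype difference was detectable.

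**Figure D3:**
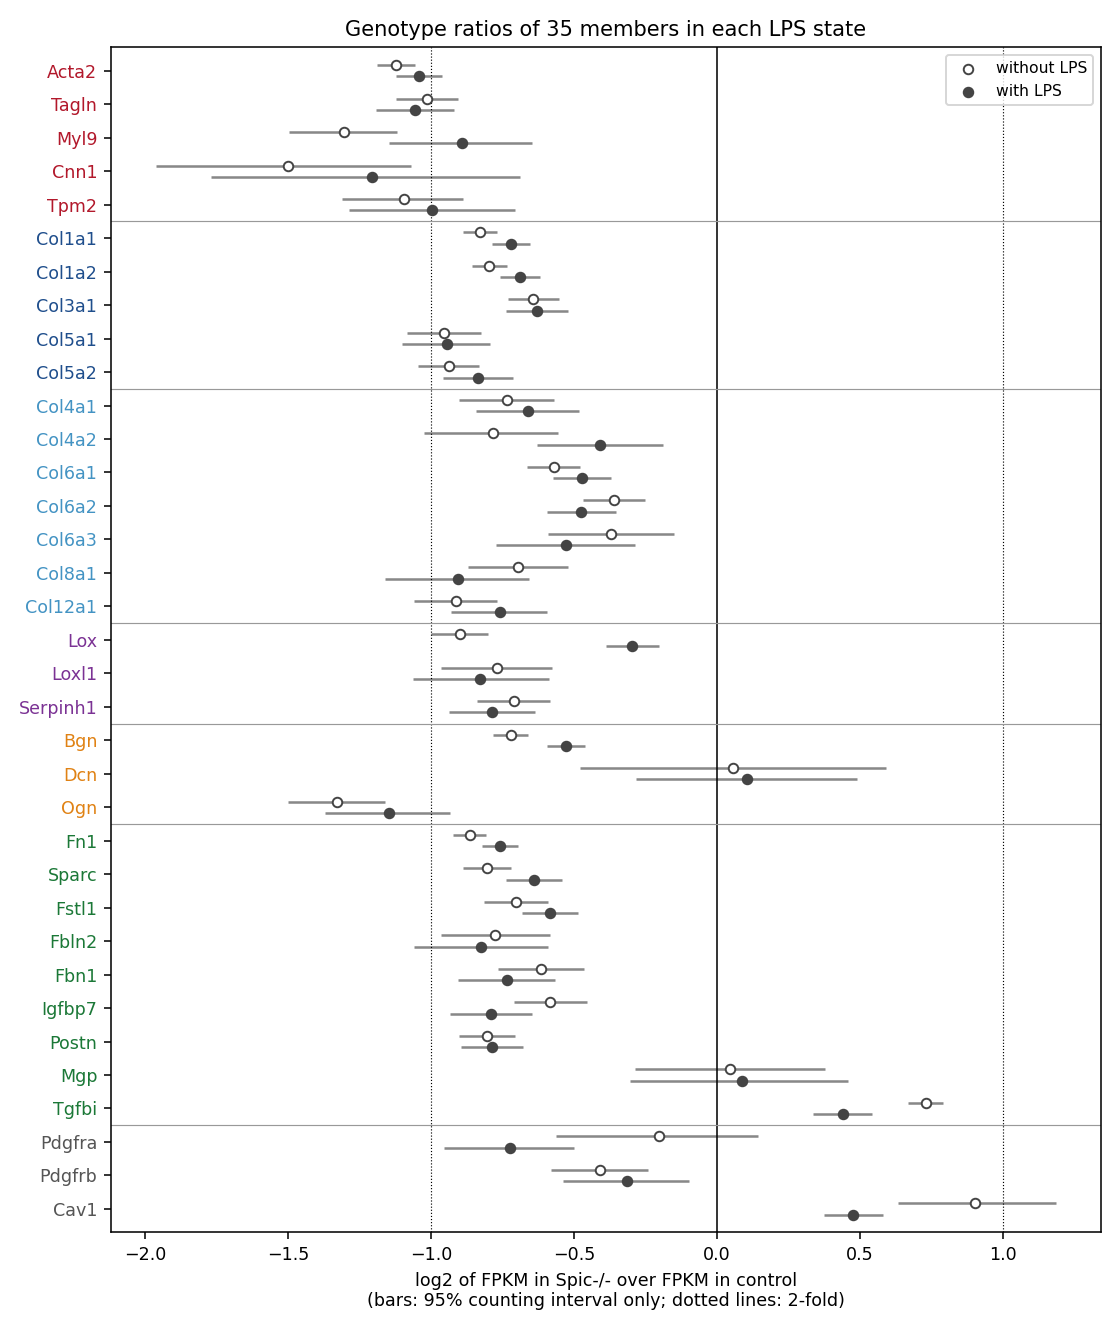
Log2 of the FPKM ratio of knockout to control for 35 members without LPS (open) and with LPS (filled), with no pseudocount; bars are 95% counting intervals and dotted lines mark 2-fold. Lum and Thy1, under 1 FPKM in all libraries, are left out; Tgfbi and Cav1 lie right of 0 in both states, with knockout levels of 166% and 187% of control without LPS.

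The genotype comparisons without and with LPS share no library. The sample labels used here name no animal or marrow preparation, so these comparisons may still not be independent. At least 1.5-fold lower in knockout in both LPS states were 59 of 6999 genes (0.843%), and 20 of these were members: 33.9% of the 59, and 64.5% of the 31 members at the minimum in both pairs. They comprised the 5 contractile genes, the 5 fibrillar collagens, Col4a1, Col8a1, Col12a1, Loxl1, Serpinh1, Ogn, Fn1, Sparc, Postn and Fbln2. Another 10 of the 59 came from the further lists, and 29 were in no list, Spic among them. Both control libraries were above both knockout libraries for 28 of 37 members, and for 26 of the 34 at the minimum, against 3.95% of all genes. The opposite order held for no member and for 9.89% of genes. The 9 members outside the first order were Col4a2, Lox, Dcn, Lum, Fstl1, Mgp, Tgfbi, Pdgfra and Cav1. Both counts require low values without LPS, on which the list was chosen, so they are fixed in part by the choice and nothing is read from them.

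**Figure D4:**
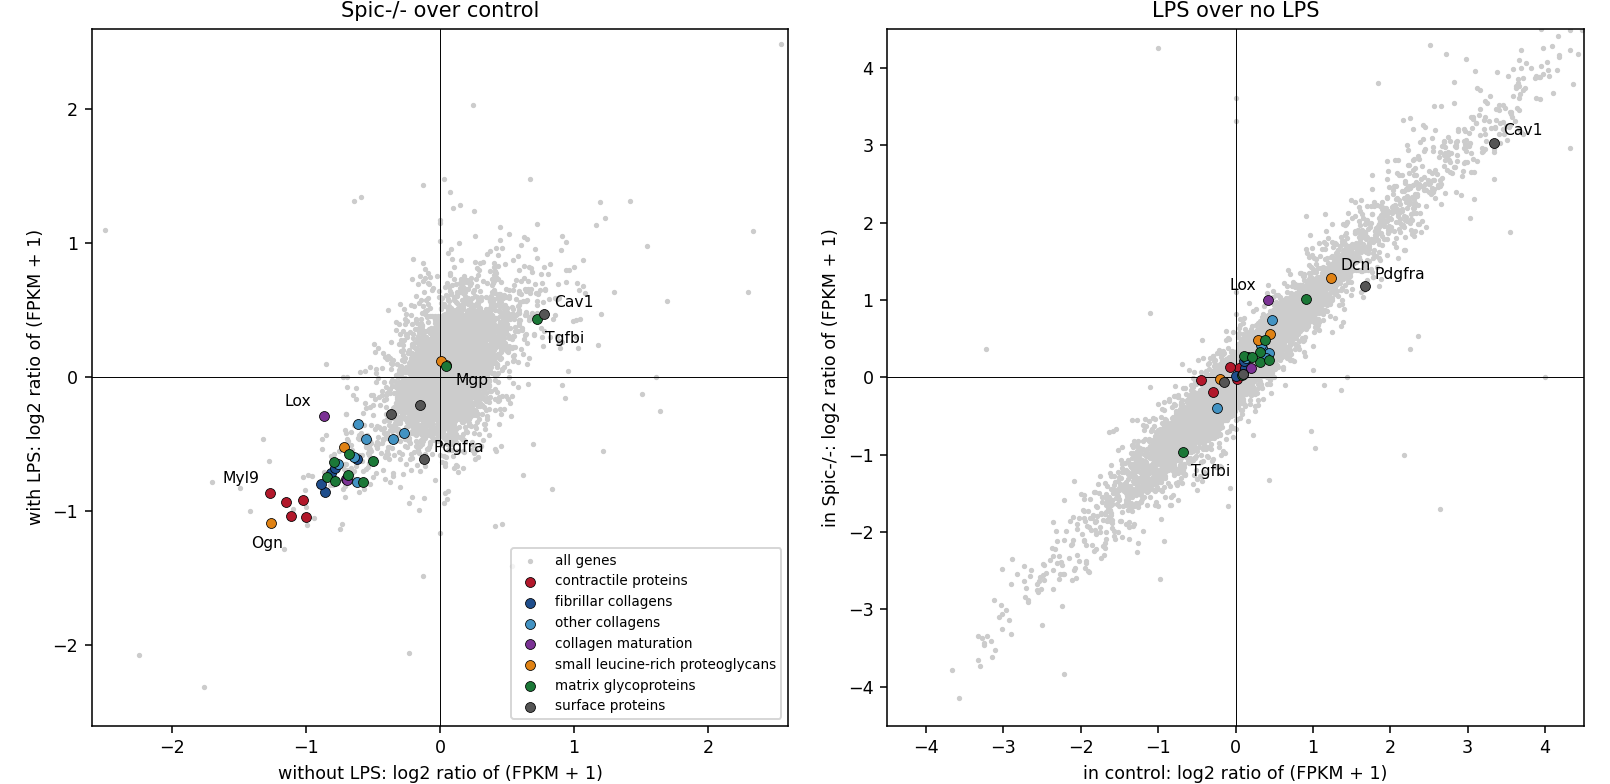
Log2 ratios of (FPKM + 1) for members (coloured by role) and for all genes with at least 5 FPKM in 1 library (grey). Left, knockout over control without LPS against the same with LPS; right, LPS over no LPS in control against knockout; 38 and 118 of 8272 genes lie outside the axes. On the left most members lie in the lower left, with Ogn at −1.26 and −1.09; on the right they lie near the origin, except Cav1 (3.33 and 3.03), Pdgfra, Dcn and a few more.

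With LPS, most members were within 2-fold of their level without it, and a few were much higher. The control library without LPS is shared by the genotype and LPS comparisons, so their values are given side by side and not compared. At least 2-fold higher with LPS were 3 of 34 members in control (12.3% of all 8050 genes) and 3 of 30 in knockout (13.7% of 8098), and none was 2-fold lower (6.5% and 7.74% of genes). In control the 3 were Cav1, Pdgfra and Dcn, which met the minimum through the library with LPS alone and so had to differ; in knockout they were Cav1, Dcn and Fstl1, and Dcn did so there. Nothing is read from these counts. Medians were 0.15 in control and 0.23 in knockout, where all genes had 0.11 and 0.12. After upper-quartile scaling of the libraries the medians of all genes became −0.07 and −0.06 and those of the members −0.02 and 0.04. The sign of a small LPS ratio therefore depends on the scaling.

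Cav1 had the largest LPS ratio. Its level was 12.1-fold higher with LPS in control (counting interval 10.4 to 14.2) and 8.99-fold higher in knockout (7.90 to 10.2). Pdgfra was 4.57-fold higher in control (3.81 to 5.47) and 3.18-fold in knockout (2.54 to 4.01), where it stayed under 5 FPKM. Dcn was 2.84-fold higher in control (2.09 to 3.88) and 2.94-fold in knockout (2.10 to 4.12). Adding 5 FPKM in place of 1, the LPS ratios for Dcn were 0.72 and 0.76, that of Pdgfra in control 0.89 and that of Fstl1 in knockout 0.90, all under 2-fold. Fstl1 was 1.90-fold higher in control and 2.07-fold in knockout, with ratios of 0.91 and 1.01, and after upper-quartile scaling 0.74 and 0.83. Lum went from about 1 to 10 fragments in each genotype, so its fold values had intervals of 2.10 to 639.7 in control and 2.28 to 696 in knockout. Tgfbi had the lowest LPS ratios, −0.68 in control and −0.97 in knockout.

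Role medians of the contractile and collagen genes were near 0, with exceptions among the collagens. Contractile genes had medians of −0.08 in control and −0.03 in knockout, with Myl9 lowest in control (−0.44). Fibrillar collagens had 0.12 and 0.21, and the other collagens 0.33 and 0.38. Col4a2 was 1.47-fold higher with LPS in control (1.29 to 1.67) and 1.90-fold in knockout (1.59 to 2.29), and Col8a1 had ratios of −0.24 and −0.40. After upper-quartile scaling Acta2 went from 0.04 to −0.13 in control and from 0.12 to −0.06 in knockout, and Tagln was at −0.16 and −0.21.

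The LPS ratios of most members were close in both genotypes. Over the 34 members at the minimum, the LPS ratios in control and in knockout, which share no library, had a Pearson correlation of 0.958 and a Spearman correlation of 0.921 across genes, which share a library's scale and are not replicates. Over all 8272 such genes the values were 0.896 and 0.954. The difference of the log2 ratios, knockout minus control, had a median of 0.05 and was within 0.25 of 0 for 31 of 37 members. On this scale no member was beyond 1.5-fold, and Lox (0.58) was just inside it. No share over all genes is given for these counts, so they do not set the members apart from other genes. The Lox level, without the 1 FPKM added, was 1.35-fold higher with LPS in control (1.27 to 1.43) and 2.05-fold in knockout (1.90 to 2.21). Myl9 followed with 0.41, and Pdgfra (−0.49), Cav1 (−0.31) and Tgfbi (−0.29) were at the other end. These differences rest on 4 single libraries and were not tested.

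The make-up of the group differed by genotype mainly through the same few genes. Acta2 was 14.7% and 13.2% of the summed FPKM of the members in control and 10.7% and 9.78% in knockout. Tgfbi was 5.82% and 3.16% in control and 15.3% and 6.52% in knockout, the largest single share in knockout without LPS. Cav1 was 0.282% and 2.99% in control and 0.836% and 6.32% in knockout. Bgn, at 11.6%, 12.3%, 11.1% and 13.03%, and Sparc, at 6.84%, 6.49%, 6.20% and 6.33%, kept similar shares. The quotient of Col1a1 to Acta2 was 0.355 and 0.381 in control and 0.435 and 0.475 in knockout, higher in both knockout libraries than in both controls.

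Further genes of the same pathways, from lists not picked for their values but drawn up with earlier results known, differed by group. Counts in these lists may be fixed in part by that knowledge, and nothing is read from them. Of 38 further matrix proteins, 14 reached 5 FPKM in the pair without LPS. Of these 7 were at least 1.5-fold lower in knockout (1.37% of all genes), 4 were at least 2-fold lower (0.412%) and none was at least 1.5-fold higher (median −0.53). With LPS 4 of 15 were 1.5-fold lower (1.69% of all genes), with a median of −0.46. Thbs1, the thrombospondin 1 gene, stood at 109 and 67.2 FPKM in control and 43.03 and 48.5 FPKM in knockout, and Ecm1 at 80.9 and 80.9 FPKM in control and 88.1 and 100.2 FPKM in knockout. Of 20 further contractile and cytoskeletal genes, 5 of 13 were at least 1.5-fold lower without LPS (1.37% of all genes). With LPS 4 of 13 were (1.69%). None was 1.5-fold higher (1.75% and 2.86% of all genes), and the medians were −0.39 and −0.28. The most abundant, the non-muscle light chain gene Myl6 and the tropomyosin gene Tpm4, which many cell types express, had ratios of 0.19 and 0.04 without LPS and 0.14 and 0.16 with LPS.

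General enzymes of collagen maturation had medians of −0.23 and −0.33, where all genes had 0.07 and 0.09. Of 20, 2 of 15 at the minimum were at least 1.5-fold lower without LPS (1.37% of all genes). With LPS 0 of 16 were (1.69%). P4hb, a protein disulfide isomerase and subunit of prolyl 4-hydroxylase, stood at 155 and 161 FPKM in control and 170.3 and 172 FPKM in knockout. The cyclophilin gene Ppib stood at 118 and 133 FPKM in control and 131 and 128 FPKM in knockout. Both were named by their level, and their ratios lay above the medians of this list in each LPS state. Of 19 further collagens, 13 were under 1 FPKM in every library and only Col18a1 reached 5 FPKM, at 6.35 and 18.5 FPKM in control and 7.27 and 24.4 FPKM in knockout. Of 13 genes of TGF-beta signalling and response, 1 of 7 was at least 1.5-fold lower in knockout without LPS (1.37% of all genes). With LPS 1 of 7 was at least 1.5-fold higher (2.86%). Tgfb1, the main TGF-beta gene, stood at 89.6 and 97.1 FPKM in control and 103 and 124 FPKM in knockout.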

How the data were processed

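RNA of 4 cultures was measured, 1 library for each genotype and LPS state. The authors deposited FPKM values, 1 column per library with 23284 gene symbols, per the file headers. Per the submitters' processing notes, the tools were Cuffnorm 2.2.1, SAMtools 0.1.19, Bowtie2 2.2.3 and TopHat2 2.0.13 and the build mm10, with no role or setting stated, and per the labels' protocols libraries came from a stranded mRNA kit. The annotation and any use of strand in counting are not given in the sources used here.

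Members and lists were chosen with earlier results of these data known. Ratios are log2 of (FPKM + 1) between single libraries. A gene was counted with at least 5 FPKM in 1 library of the pair, at 2-fold or 1.5-fold. All members are named, and of each further list at most the 2 genes with the highest mean level; lists hold 1 gene not found in the files. Genes named outside that rule, chosen after their values were seen, are Tcf21, Meox1, Myh11, Des, Cldn5 and Robo4, as markers near or at 0, and those of the closing observations. One gene that the rule would name is not reported here. Depth was estimated from values under 0.3 FPKM: of 3175 genes under 0.6 FPKM after depth scaling with values above 0 in 2 or more libraries, 83.1% were whole multiples of a smallest step (tolerance 0.02, divisors up to 6). The scale came from 472 single-transcript genes of GENCODE vM21, with 210 bases taken off the exonic length. A member's fragments use its principal protein-coding transcript. Counting at 2-fold was tried on simulated libraries that held counting error only. Neither counting at 1.5-fold nor the spread of cultures was simulated. With 1 library a group no model was fitted: an additive model of genotype and LPS would take their interaction as its error, and would test the contrast the members were chosen on. Alternatives were pseudocounts of 0.1 and 5, a minimum of 1 FPKM or none, and scaling by median ratios or upper quartiles. Python 3.11.15 with pandas 2.3.3 and scipy 1.17.1 was used.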

Additional observations from a re-analysis of the deposited data

How the results depend on the processing

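No paired analysis was possible because the groups share 1 replicate number only, with 1 library each, and no library could be left out of a pair. At 2-fold, 6 and 3 members were lower in knockout without and with LPS, and 3 and 3 were higher with LPS in control and in knockout. With a pseudocount of 5 FPKM they were 3, 1, 1 and 1, and genes lower in both LPS states were 36 in place of 59, with 13 members among them in place of 20. With a minimum of 1 FPKM or none, those genes were 98 and 105. Counted at 1.5-fold, members lower were 23 and 23 by genotype, and 1 and 1 for LPS in control and knockout. Members higher were 2 and 0 by genotype, and 4 and 5 for LPS in control and knockout. Under upper-quartile scaling the LPS medians were −0.0185 in control and 0.0404 in knockout, with 18 and 13 members below 0 in place of 7 and 7, and 1 member was 2-fold lower with LPS in knockout. No share over all genes is given here beside the member counts, so nothing is read from them. The constructions differ in how much they damp low genes or shift whole libraries, and no other cause was tested. The genotype medians of the members and the counts of members below 0 by genotype kept their direction and moved by under 1.5 times under all 6 alternatives that keep the threshold. All alternatives reuse the same libraries, and the list was made from low knockout ratios without LPS. That direction is therefore fixed in part by the choice, and nothing is read from it. No single-member ratio of 2-fold or more changed sign. Members under 1 FPKM (Lum, Thy1) are limited by depth.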

Other observations

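Genes that were at least 1.5-fold lower in knockout in both LPS states and that are no members included further products of mesenchymal cells; those below were named after their values were seen. Ccdc80, a secreted matrix protein gene, stood at 11.6 and 11.3 FPKM in control and 4.87 and 5.22 FPKM in knockout. Thbs2, the thrombospondin 2 gene, stood at 20.1 and 17.2 FPKM in control and 9.45 and 8.46 FPKM in knockout. Ctgf and Cyr61, which encode matricellular proteins that answer to YAP and serum response factor in many cells, stood at 89.7 and 44.6 FPKM in control and 44.3 and 22.4 FPKM in knockout, and at 26.6 and 16.5 FPKM in control and 12.9 and 9.53 FPKM in knockout. Both were lower with LPS in each genotype. The contractile and cytoskeletal genes Cald1 (−0.81 and −0.69), Cnn3 (−0.80 and −0.80), Cnn2 (−0.66 and −0.60) and Csrp2 (−1.02 and −0.74) were in the same set.

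Ptrf and Prkcdbp were picked from the genes lower in knockout, so their genotype direction follows from the choice. Ptrf, the cavin 1 gene, stood at 6.67 and 6.39 FPKM in control and 3.46 and 3.33 FPKM in knockout, and Prkcdbp, the cavin 3 gene, at 7.98 and 5.88 FPKM in control and 4.44 and 3.33 FPKM in knockout. Neither was higher with LPS, whereas the caveolin gene Cav1 was. Rspo2, a secreted Wnt agonist gene, had ratios of −0.94 and −1.05, and Serpinf1, the pigment epithelium-derived factor gene, −0.66 and −0.74.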
